A study of Mus musculus with 25 samples.

Results

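The Hox cluster genes were taken as every gene whose symbol is Hox, a letter from a to d and a number, which gave 40 of the 24439 gene entries in the RNA-seq table and 39 distinct symbols, since Hoxa3 is listed under 2 Ensembl identifiers. By the same rule applied to the nearest gene, 16 of the 65053 consensus ATAC-seq peaks were Hox peaks. The samples were a pair of mouse pancreatic islet cell lines, the glucagon-producing line αTC1 (alpha TC1 clone 6) and the insulin-producing line βTC6 (beta-TC-6). RNA-seq covered 3 libraries of each line, and ATAC-seq, which reads open chromatin by the insertion of a transposase, covered 5 libraries of each line and 9 counted mixtures with 10% to 90% αTC1 cells in steps of 10 percentage points, 1 library each. As background, both lines were raised from islet tumours of transgenic mice that express SV40 T antigen, and αTC1 is a single clone, so each line stands for itself and not for its islet cell type at large. αTC1 and βTC6 were grown in different DMEM formulations with different shares of serum, so line and medium cannot be told apart. No drug and no time point differed between the groups.

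Hox genes encode homeodomain transcription factors that are arranged in 4 clusters, HoxA to HoxD, and are switched on in the embryo in the order of their position, which gives each level of the body axis its own set. In adult cells the set is often kept as a record of position, with polycomb complexes holding unused clusters silent and trithorax complexes keeping used ones open. Hox proteins bind DNA together with cofactors of the TALE class, the Pbx, Meis and Pknox proteins. In the mm9 build the HoxA entries lay at chr6:52105366-52210874, HoxB at chr11:96055630-96229570, HoxC at chr15:102751534-102867274 and HoxD at chr2:74506367-74603200.

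The sequences just upstream of Hoxa6 and Hoxb13 are shown first, because these genes had the highest mean RNA level of their clusters and a peak over an annotated transcript start that was stronger in αTC1. For Hoxb13 this is the start of the 1 annotated transcript, which codes for protein; for Hoxa6 it is the start of the longer of 2 transcripts, a noncoding one (processed transcript). They are reference sequence of mm9, written 5′ to 3′ on the strand of the gene and ending at the base before that start, with every CpG in capitals. They were read from chr6:52161356-52161655 (minus strand) and chr11:96055335-96055629 (plus strand), and the latter begins where the peak begins.
Hoxa6: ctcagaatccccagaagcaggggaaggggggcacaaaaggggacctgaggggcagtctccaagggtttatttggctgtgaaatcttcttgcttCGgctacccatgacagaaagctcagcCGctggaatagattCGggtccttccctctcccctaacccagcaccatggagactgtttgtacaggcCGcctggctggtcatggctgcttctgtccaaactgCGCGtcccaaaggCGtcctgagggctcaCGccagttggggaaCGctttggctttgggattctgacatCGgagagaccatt
Hoxb13: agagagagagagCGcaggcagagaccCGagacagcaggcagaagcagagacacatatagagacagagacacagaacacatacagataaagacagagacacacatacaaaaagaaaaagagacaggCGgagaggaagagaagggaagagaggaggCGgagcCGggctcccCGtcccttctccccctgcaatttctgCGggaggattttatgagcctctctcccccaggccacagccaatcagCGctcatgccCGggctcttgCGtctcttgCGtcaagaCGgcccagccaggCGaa
None of these bases lay in an annotated exon. The Hoxb13 stretch held 13 CpG in 295 bases, an observed over expected ratio of 0.56, and the Hoxa6 stretch 10 in 300 bases (0.42), while the median over 22380 upstream windows of protein-coding genes was 0.48 and that over the 40 Hox windows was 0.66. The homeodomain core TAATTA was in neither stretch, and it occurred on either strand in 5.74% of all windows of 300 bases and in 1 of the 40 Hox windows. The Hox-Pbx composite TGATTNAT was also in neither, in 3.21% of all windows and in 2 of the 40 Hox windows. A match of one motif can overlap a match of the other in part, TAATTA is its own reverse complement and was counted once, and a match describes these letters only.

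Hox RNA was found in αTC1 and was almost absent from βTC6. Summed over the 40 entries, the FPKM (fragments per kilobase of transcript, scaled to the depth of the library, so a level per length) was 27.9, 31.0 and 24.9 in the 3 αTC1 libraries and 0.13, 0.23 and 0.13 in the 3 βTC6 libraries. The lines did not overlap. In expected counts, all αTC1 libraries together held 3414 and all βTC6 libraries 15. By cluster, HoxA gave a summed FPKM of 20.3 ± 3.32 (SD, n = 3) in αTC1, HoxB 5.26 ± 0.69, HoxC 2.35 ± 0.33 and HoxD 0.060 ± 0.020. HoxD was listed with 8 counts in αTC1 and 0 in βTC6, and a count of 0 over 3 libraries allows up to 0.0395 CPM. Of the 40 entries, 17 had over 3 counts in all 3 αTC1 libraries and at most 3 in each βTC6 library, 7 of them in HoxA, 7 in HoxB, 3 in HoxC and 0 in HoxD; of all genes in the table, 1.25% met this description. The reverse held for 0 Hox entries and for 4.35% of all genes. In these bulk samples fewer cells of a type and less RNA per cell cannot be told apart.

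**Figure D1:**
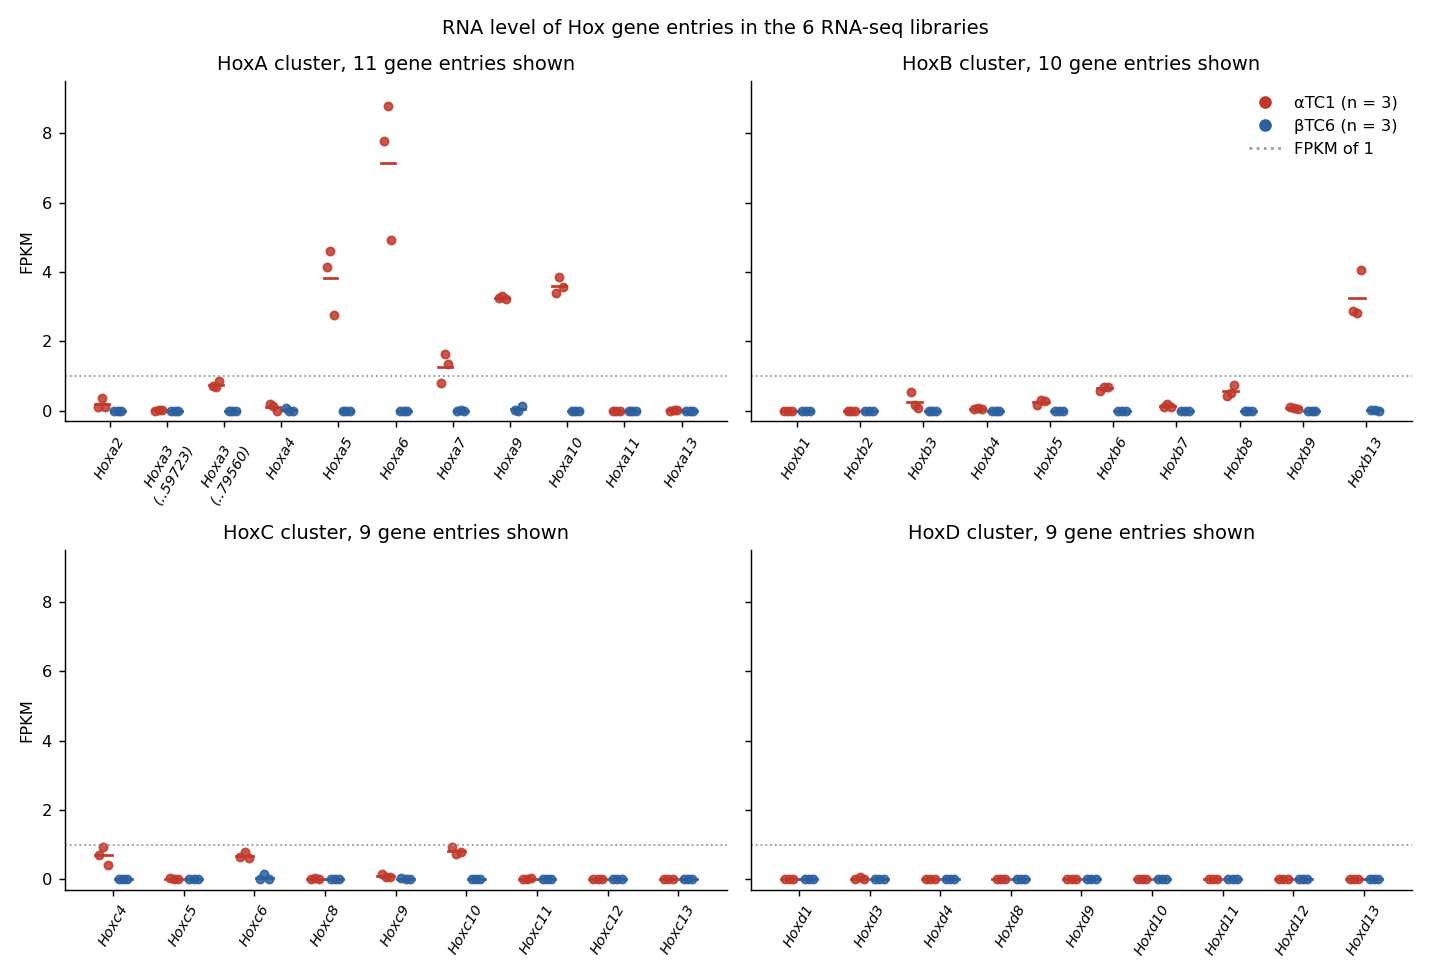
RNA level (FPKM, vertical axis) of 39 Hox entries in the 4 clusters, each point 1 library of αTC1 or βTC6 (n = 3 each) and each bar the mean, with a dotted line at an FPKM of 1. The αTC1 points of Hoxa5, Hoxa6, Hoxa9, Hoxa10 and Hoxb13 lie above the line in every library, the βTC6 points lie at 0.15 or lower, and HoxD is at or near 0 in both lines.

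Hoxa6 had the highest level of any Hox gene. This gene (ENSMUSG00000043219, chr6:52155430-52161355) belongs to the middle of the cluster. Its FPKM was 7.76, 8.77 and 4.92 in αTC1 and 0 in all βTC6 libraries, from 696 counts against 0, so it was at least 239-fold higher in αTC1 with a floor of 3 counts over the βTC6 group. Hoxa5 (ENSMUSG00000038253, chr6:52151753-52154586), known for its role in the lung and foregut, had an FPKM of 4.15, 4.59 and 2.75 in αTC1 and 0 in βTC6, at least 174-fold higher. The third αTC1 library was the lowest for both of these neighbours. Hoxa10 (ENSMUSG00000000938, chr6:52181196-52190853), a gene of the posterior part of the cluster known from the uterus and from blood progenitors, stood at 3.40, 3.86 and 3.56 against 0 in βTC6, at least 128-fold higher.

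Hoxa9 and Hoxb13 had a few counts in βTC6, so a ratio can be given. Hoxa9 (ENSMUSG00000038227, chr6:52173099-52181088), a factor of blood progenitors and of leukaemias, had an FPKM of 3.24, 3.31 and 3.21 in αTC1 and of 0.01, 0 and 0.13 in βTC6. Its 346 counts against 3 gave a ratio of 119 per unit of depth (exact 95% interval 40.2 to 578, counting error only). Hoxb13 (ENSMUSG00000049604, chr11:96055630-96058761), the most posterior gene of HoxB and known from the tail end of the embryo and the prostate, had 2.88, 2.83 and 4.06 in αTC1 and 0.02, 0.02 and 0 in βTC6. Its 517 counts against 2 gave a ratio of 266 (73.2 to 2201). All 5 genes were thus separated between the lines, with no αTC1 library near any βTC6 library.

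The order of levels in αTC1 was Hoxa6, Hoxa5, Hoxa10, Hoxb13 and Hoxa9. The lowest Hoxa6 library, at 4.92, was above the highest Hoxa5 library, at 4.59, whereas the ranges of all other neighbours in this order overlapped. By edgeR's quasi-likelihood test with Benjamini-Hochberg adjustment over 12195 genes with an FPKM of at least 1 in every library of either line, and thresholds of FDR 5% and more than 2 in absolute log2 fold change, all 5 Hox genes that entered the test (of 40, where 49.9% of all genes entered) were called higher in αTC1, beside 4.08% of all genes tested in that direction and 10.2% in the other. These genes entered the test only through their αTC1 level, so they had to differ and their count carries no weight of its own. The adjusted p was 6.78e-06 for Hoxa6, 5.59e-06 for Hoxa5, 2.1e-06 for Hoxa10, 1.43e-06 for Hoxa9 and 5.09e-07 for Hoxb13. The fitted log2 fold change of βTC6 over αTC1 was -6.73 (SE 0.45) for Hoxa9 and -7.80 (SE 0.44) for Hoxb13, values that depend on the prior count and are no bound.

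With no filter on FPKM, 32 of the 40 entries could be tested and 19 were called higher in αTC1, beside 5.21% of 19570 genes, with 8 of these in HoxA, 8 in HoxB, 3 in HoxC and 0 in HoxD. No Hox gene was called higher in βTC6 by edgeR with or without the filter, or by DESeq2 with it, and the number of the 5 filtered genes higher in βTC6 at an unadjusted p under 0.05 was also 0. The remaining 8 entries, Hoxa11, Hoxb1, Hoxb2, Hoxc12, Hoxc13, Hoxd1, Hoxd8 and Hoxd11, were at 0 in all 6 libraries (they are named here because of that value). The highest βTC6 count of any Hox entry was 3, in 1 library of Hoxa4. Within HoxA, the 5 genes from Hoxa5 to Hoxa10 held 2084 of the 2267 counts in αTC1 (91.9%), and the genes on either side of them were low.

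Below the filter, Hoxa7 lay between Hoxa6 and Hoxa9 on the chromosome and had an FPKM of 0.79, 1.65 and 1.35 in αTC1 against 1 count in βTC6 in all. Its ratio was 163 (exact 95% interval 28.9 to 6498), and it entered the test and became the sixth Hox gene called when αTC1 library 1 was left out. Hoxa3 (entry ENSMUSG00000079560) stood at 0.71, 0.68 and 0.87 and was at least 42.5-fold higher in αTC1. Hoxa2, a gene of the hindbrain and its neural crest, was lower, at 0.12, 0.37 and 0.11, and at least 11.7-fold higher. In HoxB, apart from Hoxb13, the levels were highest for Hoxb6 (0.57, 0.69 and 0.70) and Hoxb8 (0.42, 0.50 and 0.75), which were at least 27.8-fold and at least 30.5-fold higher. Hoxb5 (0.18, 0.31 and 0.27) and Hoxb3 (0.53, 0.18 and 0.09) followed, at least 17.5-fold and at least 7.20-fold higher. All 4 of these HoxB genes were at 0 in βTC6, so their levels did not overlap between the lines, although the αTC1 levels were low.

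In HoxC, Hoxc10 had an FPKM of 0.95, 0.73 and 0.80 in αTC1 and 0 in βTC6, at least 38.4-fold higher. Hoxc4 stood at 0.70, 0.95 and 0.43 with a ratio of 102 (17.9 to 4061), and Hoxc6 at 0.65, 0.79 and 0.62 with a ratio of 42.2 (11.3 to 354). No αTC1 library of these 3 genes overlapped a βTC6 library. The highest FPKM of any HoxD entry was 0.06, for Hoxd3 in 1 αTC1 library.

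Neighbouring Hox genes share transcribed bases, which bears on how fragments are divided among them. In the GENCODE annotation of the same build, Hoxa5, Hoxa6, Hoxa10 and Hoxb13 shared 0% of their exonic bases with another gene, and Hoxa9 shared 5.67% on the same strand. Hoxa7 had 20.4% of its exonic bases under an antisense gene, and the Hoxa3 entry named above had 33.0% on the same strand and 25.04% antisense. Hoxb3 had 37.9% under the antisense gene Hoxb3os, and Hoxb8 shared 40.4% with Hoxb7. The kit keeps strand, but RSEM was run with its default parameters, which do not use it, so reads of a gene and of its antisense partner cannot be told apart, and the levels of Hoxa7, Hoxa3, Hoxb3, Hoxb7 and Hoxb8 are uncertain as to their division.

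Other whole-library facts moved with the line. The depth in genes was similar, with 2.18e+07 to 2.49e+07 expected counts in αTC1 and 2.43e+07 to 2.59e+07 in βTC6. Of the alpha cell markers 6 of 7 entries were called higher in αTC1 (Gcg at 12113, 12267 and 14406 FPKM against 249, 267 and 172) and of the beta cell markers 7 of 7 in βTC6, as the labels have it. Of 7 markers of mesenchyme, a tissue rich in Hox expression, 2 (Col1a2 and Pdgfra) were tested. Both were called higher in αTC1, as were 4.08% of all genes tested. The summed FPKM of the 7 was 2.5 to 3.57 in αTC1 and 0.38 to 0.56 in βTC6. Col1a1 had 38 counts in αTC1 and 46 in βTC6, and Thy1 had 4 and 6. Pdgfrb had 21 and 1, Acta2 had 2 and 0, and Col3a1 was at 0 in every library. Of the duct markers Sox9 was higher in αTC1 and Krt7 in βTC6. Endothelial markers summed to at most 0.12 in αTC1 and 0.31 in βTC6. The tested genes of the chromosome that holds HoxA, chromosome 6, also stood lower in βTC6, with a median log2 fold change of -0.76, against 0.48 on chromosome 11, -0.03 on chromosome 15 and -0.22 on chromosome 2. The part of these differences in the Hox values was not tested.

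Open chromatin at the Hox genes followed the same direction. All 16 Hox peaks, 8 in HoxA, 2 in HoxB, 6 in HoxC and 0 in HoxD, were more accessible in every αTC1 library than in every βTC6 library. This was the case for 30.2% of all peaks, and the reverse for 33.7%. All 16 passed an FDR of 5% in limma on log2(TMM-normalized read count + 1), beside 38.1% of all peaks in that direction. Their median log2 fold change was -1.64 and their range -2.48 to -0.75, while the median of all peaks was 0.0011. With the fold threshold added, 3 of the 16 were called, beside 5.38% of all peaks higher in αTC1 and 12.9% higher in βTC6 (7.88% and 8.69% with quantile normalization, under which 7 Hox peaks were called). With 5 in place of 1 added to the read count, 0 Hox peaks were called. Since 100% of the values were whole multiples of 1 read within a tolerance of 0.01, edgeR could also be run on the recovered reads; it called 5739 peaks higher in αTC1 (8.82%), 8 Hox peaks among them, and 13794 higher in βTC6 (21.2%). A peak enters the consensus set if it is found in libraries of either line, so a region closed in βTC6 is in the table through αTC1.

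Peaks of chromosome 6 as a whole were lower in βTC6, with a median log2 fold change of -0.79 and 59.4% of its peaks past the FDR on the αTC1 side. On chromosome 11 the median was 0.12 with 33.9% on that side, on chromosome 15 it was -0.09 with 39.0%, and on chromosome 2 it was -0.16 with 42.8%. All 16 Hox peaks lay below the median of their own chromosome. The median distance below it was -0.67 for HoxA, -1.93 for HoxB and -1.66 for HoxC. With each chromosome's median subtracted, the Hoxb13 peak alone remained past the fold threshold. The part of the chromosome-wide difference in the HoxA values was not tested.

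**Figure D2:**
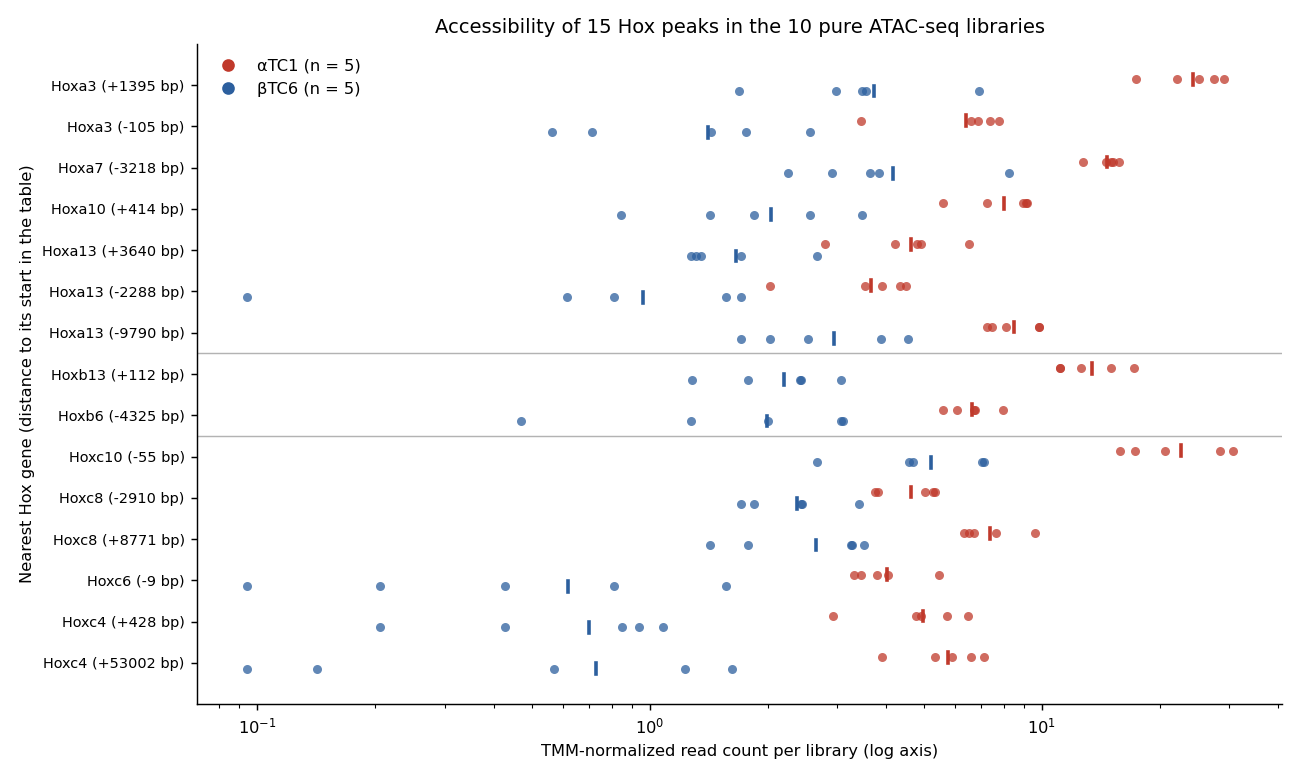
Normalized read count (log axis) of 15 Hox peaks, ordered by cluster and position, in 5 αTC1 and 5 βTC6 libraries, with bars at the means. In each row every αTC1 point lies to the right of every βTC6 point, and the peaks near Hoxa6 (Hoxa3 at +1395 bp) and Hoxc10 reach the highest αTC1 values.

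The strongest Hox peak lay at chr6:52161185-52162157 and holds the start of the noncoding Hoxa6 transcript, while the start of the protein-coding one lies 2464 bp beyond its edge. The table assigns it to Hoxa3, whose start is 1395 bp from its centre. It had 22.1, 29.1, 27.5, 25.1 and 17.3 normalized reads in αTC1 libraries 1 to 5 and 2.98, 3.49, 6.89, 3.57 and 1.69 in βTC6. The means were 24.2 ± 4.66 and 3.72 ± 1.92 (SD, n = 5), from 120 to 207 whole reads per αTC1 library and 17 to 51 per βTC6 library. The lowest αTC1 library was thus above the highest βTC6 library. The log2 fold change was -2.48 (SE 0.22, adjusted p = 4.62e-09), and it was -1.69 after the chromosome median was subtracted. The study computed the mitochondrial share of reads differently for the first 3 replicates than for the last 2. Within replicates 1 to 3 this was the 1 Hox peak called, within replicates 4 and 5 it was 1 of 4, and in both sets all 16 Hox peaks were lower in βTC6.

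Next to it, the peak over annotated Hoxa3 starts, at chr6:52162969-52163372, was weaker. Its centre lay 105 bp from the start it is assigned to. It had 6.58, 6.88, 7.36, 7.78 and 3.47 normalized reads in αTC1 and 2.56, 1.44, 1.76, 0.71 and 0.56 in βTC6 (-1.65, SE 0.26, adjusted p = 7.20e-06). The peak that holds the start of 1 of the 5 annotated Hoxa7 transcripts, at chr6:52171452-52172128, had 12.7, 15.0, 14.6, 15.7 and 15.2 in αTC1 and 8.24, 2.26, 3.65, 3.85 and 2.91 in βTC6 (-1.69, SE 0.23, adjusted p = 1.00e-06). Library 1 of βTC6 stood above the others there and still below each αTC1 library. The peak inside Hoxa10, at chr6:52190125-52190753, ended 41 bp from its nearest annotated start and had 8.96, 9.13, 9.17, 5.60 and 7.22 in αTC1 and 1.85, 3.49, 2.57, 1.43 and 0.84 in βTC6 (-1.62, SE 0.25, adjusted p = 5.77e-06).

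Accessibility and RNA did not mark the same HoxA genes throughout. Hoxa5, with the second highest RNA level, had its nearest consensus peak 6599 bp from its start, and Hoxa9 had its nearest at 4022 bp. Of the 17 entries with over 3 counts in every αTC1 library, 6 had an annotated transcript start inside a peak and 8 had one within 2 kb of a peak; of the other 23 entries the numbers were 2 and 2. The 3 peaks assigned to Hoxa13, whose RNA was near 0, were among the weakest by fold, with log2 fold changes of -1.07, -1.30 and -1.31 against the chromosome median of -0.79.

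In HoxB the peak over the start of Hoxb13, at chr11:96055335-96056238, stood out. Its normalized reads were 12.6, 11.1, 15.0, 17.2 and 11.1 in αTC1 and 2.41, 3.08, 2.43, 1.28 and 1.78 in βTC6, with means of 13.4 ± 2.65 and 2.198 ± 0.69 (SD, n = 5) and 77 to 126 against 9 to 19 whole reads. The groups did not overlap, and the log2 fold change was -2.18 (SE 0.21, adjusted p = 1.17e-08). It was -1.93 within replicates 1 to 3, just short of the fold threshold, and -2.56 within replicates 4 and 5. The other HoxB peak, in an intron of Hoxb6 at chr11:96155948-96156372, had 6.72, 6.74, 7.97, 5.60 and 6.07 in αTC1 and 1.28, 3.08, 3.11, 2.00 and 0.47 in βTC6 (-1.44, SE 0.26, adjusted p = 4.74e-05). A further peak inside HoxB, assigned to Mir10a and so no Hox peak by the rule, differed less (-0.43, adjusted p = 0.115).

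In HoxC the peak over the start of Hoxc10 was the strongest, with 20.6, 17.3, 15.8, 30.7 and 28.5 normalized reads in αTC1 and 4.69, 2.67, 4.59, 7.13 and 7.04 in βTC6. Libraries 4 and 5 were the highest of both lines, and the lines did not overlap. The means were 22.6 ± 6.69 and 5.22 ± 1.88 (SD, n = 5), and the log2 fold change of -1.93 (SE 0.22, adjusted p = 1.17e-07) lay just outside the fold threshold. Just inside it, at -2.03 (SE 0.25, adjusted p = 2.83e-07), lay an intergenic peak at chr15:102917677-102917978, which is beyond the end of the cluster and 53002 bp from the start of Hoxc4, its nearest gene. This distal peak had 6.58, 5.90, 3.91, 7.10 and 5.34 in αTC1 and 0.14, 1.23, 1.62, 0.57 and 0.09 in βTC6, where the lowest value is the worth of 1 read and cannot be told from none. Its whole reads were few, at 26 to 52 and 1 to 12, and it lost the fold call when αTC1 replicate 1 (-1.99) or replicate 4 (-1.96) or βTC6 replicate 1 (-1.91) or replicate 5 (-1.89) was left out, or within replicates 1 to 3 (-1.75).

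This distal peak was poor in CpG, with an observed over expected ratio of 0.14 against a median of 0.57 over the 16 Hox peaks. Of the HoxC peaks those assigned to Hoxc8 changed least, at -0.75 (SE 0.21) 2910 bp upstream of its start and -1.23 (SE 0.23) at a distance of 8771 bp. The 2 remaining HoxC peaks fell outside the naming rule and are given for completeness: the peak over the start of 1 of 3 Hoxc6 transcripts, at chr15:102839834-102840134, changed by -1.69 (SE 0.22) and the one inside Hoxc4, at chr15:102865048-102865460, by -1.81 (SE 0.21). Within 100 kb outside the clusters 8 more peaks were found. At an FDR of 5% alone 7 of these 8 were higher in αTC1, beside 38.1% of all peaks, with a median log2 fold change of -0.62 over the 8. In 4 every αTC1 library was above every βTC6 library, as in 30.2% of all peaks. The other 1, in an intron of D930007P13Rik at chr15:102965857-102966450, was called higher in βTC6. It is named for that value: its mean was 1.43 ± 0.90 in αTC1 and 17.8 ± 2.48 in βTC6, a log2 fold change of 3.01 (SE 0.23, adjusted p = 3.13e-10). The 1 peak inside HoxD, at the start of Hoxd3os1, was no Hox peak by the rule and had a log2 fold change of -1.08 (SE 0.21, adjusted p = 1.21e-04).

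**Figure D3:**
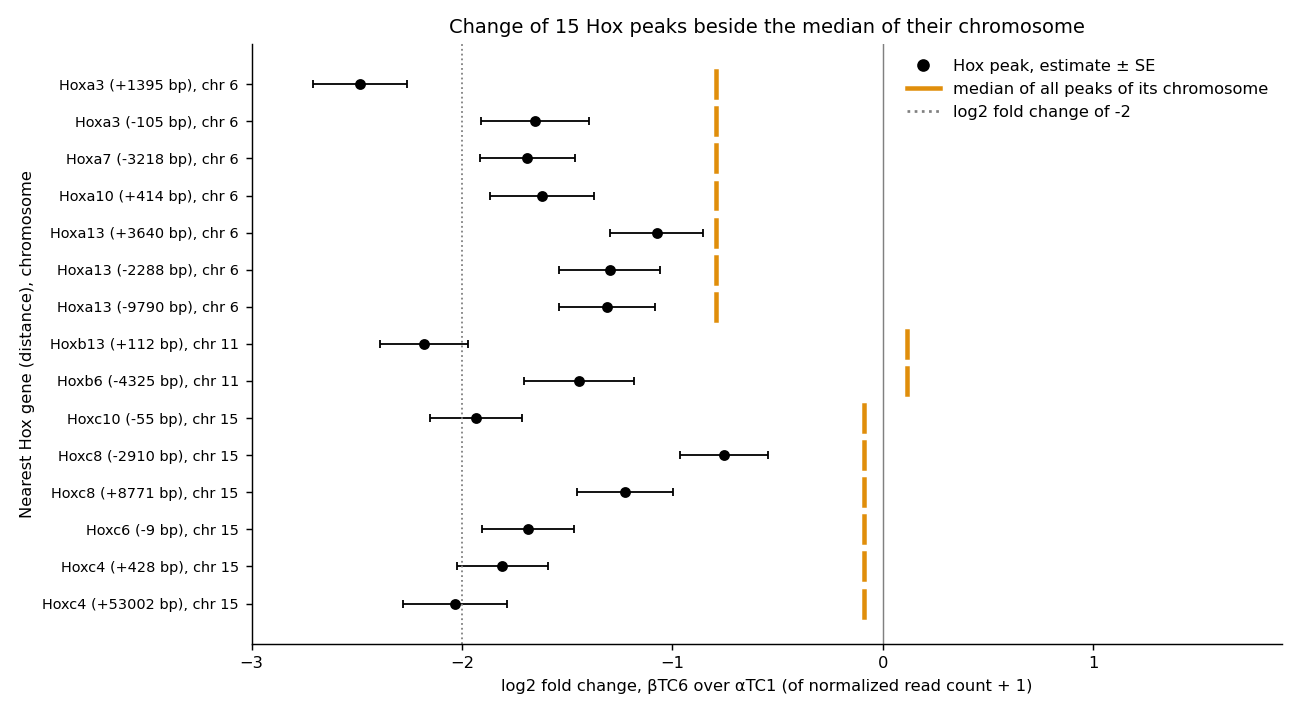
Log2 fold change of βTC6 over αTC1 (horizontal axis, of normalized read count + 1) of 15 Hox peaks with SE, beside the median of all peaks on the same chromosome (orange) and the fold threshold (dotted line at -2). All 15 lie to the left of the median of their chromosome, and the peaks at Hoxa3 (+1395 bp), Hoxb13 and Hoxc4 (+53002 bp) lie beyond the threshold.

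The median over the 16 peaks of their mean normalized read count was 6.99 in αTC1 and 2.12 in βTC6, against 6.09 and 7.75 over all peaks. The 8 Hox peaks within 2 kb of a start had medians of 8.34 and 2.12, against 24.98 and 21.0 over the 14581 peaks that near a start. The sequence of the 16 was richer in GC than that of all peaks, with medians of 54.9% and 47.6%, and in CpG, with observed over expected ratios of 0.57 and 0.26, where the start-site peaks had 0.72. Of the 16, 8 lay within 2 kb of the start of their nearest gene and 7 held an annotated transcript start of a Hox gene.

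The mixtures gave 9 further libraries for the same peaks. They blend the same lines, so a peak higher in pure αTC1 is set to rise with the αTC1 share. The slopes are thus no separate support for a difference between the lines. Over the 9 mixtures, 12 of the 16 Hox peaks rose with the share of αTC1 cells at an FDR of 5% (limma slope of log2 normalized read count + 1 per 10 percentage points), beside 24.8% of all peaks in that direction and 33.5% in the other. All 16 slopes were positive, with a median of 0.14 against -0.0093 over all peaks, and 0 fell, also at an unadjusted p under 0.05. The count was 6 without the mixture of 10% αTC1 and 8 without that of 80%, so it leaned on these libraries.

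At the Hoxa6 peak the mixtures from 10% to 90% αTC1 had 4.17, 4.52, 9.24, 10.2, 14.2, 10.3, 15.3, 17.2 and 19.5 normalized reads, a slope of 0.24 (SE 0.03, adjusted p = 1.87e-05). The rise ran from within the range of pure βTC6 to within that of pure αTC1. At Hoxb13 the values were 4.03, 4.79, 5.71, 5.45, 7.31, 9.32, 7.63, 9.55 and 11.99 (slope 0.16, SE 0.04, adjusted p = 9.82e-04). At Hoxc10 they were 6.19, 11.5, 14.3, 13.5, 17.2, 18.8, 20.8, 27.1 and 23.8 (slope 0.20, SE 0.03, adjusted p = 1.33e-05), and the highest was the mixture of 80%. The distal Hoxc4 peak rose from 1.75 at 10% to 4.88 at 90% (slope 0.11, SE 0.04, adjusted p = 0.0265).

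Of the 4 peaks that did not pass, that of Hoxa7 had a slope of 0.05 (adjusted p = 0.334), the upstream one of Hoxc8 a slope of 0.09 (adjusted p = 0.0851) and that of Hoxc6 a slope of 0.02 (adjusted p = 0.655). At Hoxa7 the mixtures had 4.17, 6.44, 4.87, 9.21, 6.14, 8.60, 7.63, 8.16 and 5.28 normalized reads. The sample with 90% αTC1 thus had 5.28, below each of the 5 pure αTC1 libraries, which had 12.7 to 15.7. At Hoxc6 the mixture values lay between 1.504 and 2.74 with no order by composition, against 3.32 to 5.46 in pure αTC1. A mixture with 1 library per composition has no replicate check.

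**Figure D4:**
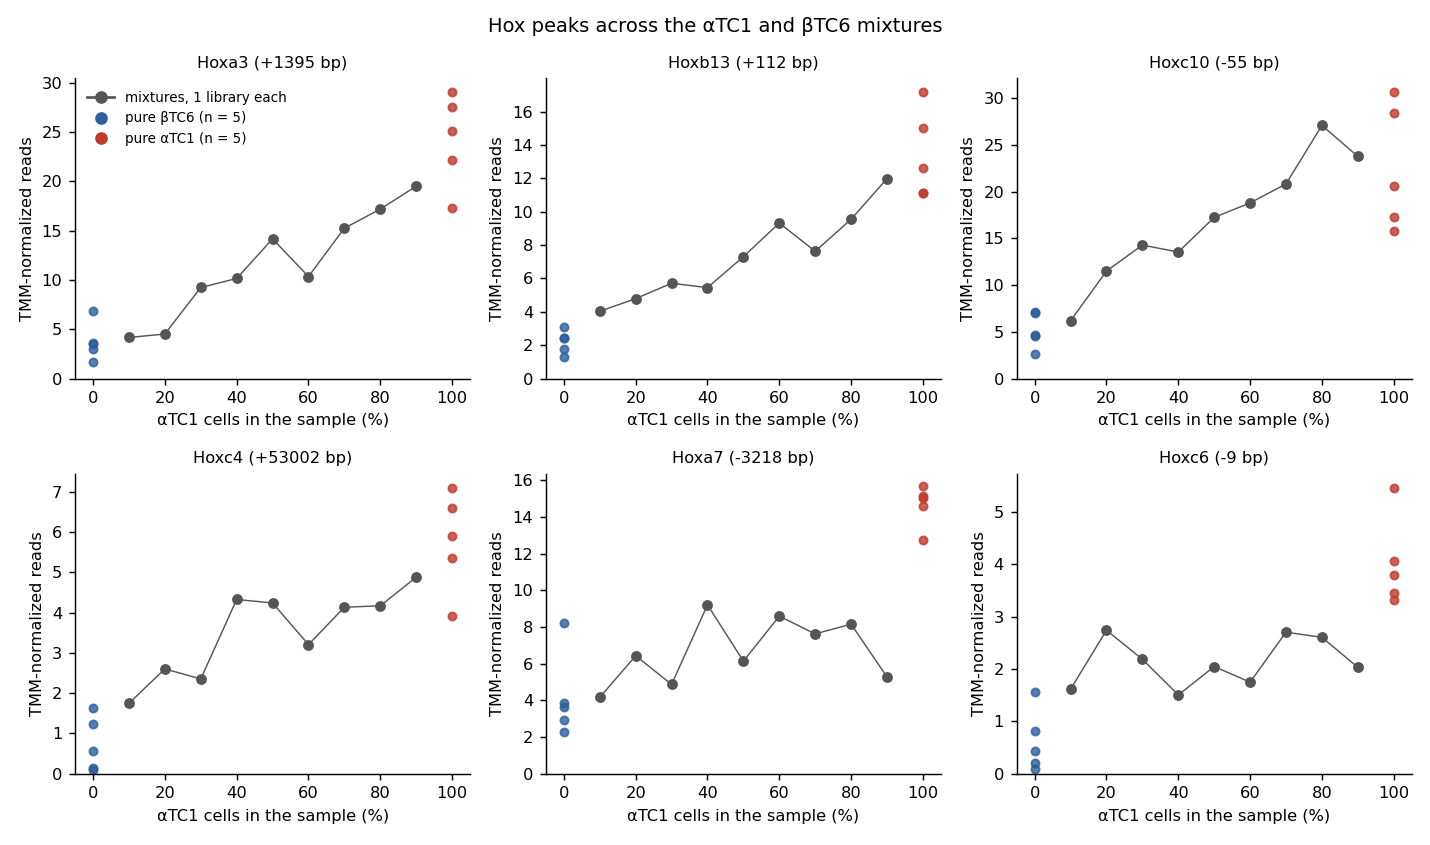
Normalized read count (vertical axis) of 6 Hox peaks against the percentage of αTC1 cells, with mixtures in grey (1 library each), pure βTC6 at 0% and pure αTC1 at 100% (n = 5 each). The Hoxa3 (+1395 bp), Hoxb13, Hoxc10 and distal Hoxc4 peaks rise with the αTC1 share, and the Hoxa7 and Hoxc6 peaks stay below the pure αTC1 libraries in every mixture.

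The genes that act with or upstream of Hox proteins were read from lists of 105 entries chosen with earlier results of these data known, in the same edgeR fit. Of 11 cofactor genes, all tested, 1 was called higher in αTC1 and 2 in βTC6, where 4.08% and 10.2% of all genes were, and the median log2 fold change was -0.08 against 0.0094 over all genes. Meis1, the cofactor of Hoxa9 in blood progenitors, had an FPKM of 12.5, 13.8 and 16.6 in αTC1 and 1.32, 1 and 1.30 in βTC6 (-3.54, SE 0.18, adjusted p = 2.41e-07). The opposite held for Pbx3, at 1.38, 1.23 and 0.80 against 41.6, 40.2 and 42.6 (5.35, SE 0.13, adjusted p = 4.14e-09). Pknox2, another TALE gene, was at 0.07 to 0.08 in αTC1 and at 4.06, 3.34 and 3.94 in βTC6 (5.81, SE 0.24, adjusted p = 9.31e-08). These 3 genes were separated between the lines in every library, in opposite directions. Meis3 was at 18.7, 18.6 and 18.8 against 17.7, 13.6 and 18.4 (-0.08, SE 0.11, adjusted p = 0.504).

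Of 31 polycomb genes and 13 trithorax and demethylase genes, all tested, 0 passed both thresholds by edgeR and 0 by DESeq2, where 4.08% of all genes did so on the αTC1 side and 10.2% on the βTC6 side. At an FDR of 5% alone, 16 polycomb genes were higher in αTC1 and 6 in βTC6 (17 and 6 at an unadjusted p under 0.05), where 36.0% and 38.7% of all genes were, and the median log2 fold change was -0.28. Ezh2, the methyltransferase of polycomb complex PRC2, had an FPKM of 104.5, 99.0 and 100.0 in αTC1 and 37.7, 39.2 and 36.1 in βTC6 (-1.36, SE 0.08, adjusted p = 6.01e-07). The more abundant polycomb entries Rbbp7 and Rbbp4 had log2 fold changes of 0.14 (SE 0.10, adjusted p = 0.222) and 0.22 (SE 0.08, adjusted p = 0.0356). The part of these genes in the Hox values was not tested. Of the trithorax list 7 were higher in αTC1 and 3 in βTC6 by FDR alone (7 and 3 unadjusted), with a median of -0.36. Ctcf, a factor bound at boundaries within Hox clusters, stood at 44.1, 43.8 and 37.8 against 42.9, 43.4 and 40.4 (0.00, SE 0.10, adjusted p = 0.996).

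Of 13 entries of upstream factors 4 were tested, and 2 were called higher in βTC6, where 10.2% of all genes tested were. Cdx2, an activator of posterior Hox genes in the embryo, was at 0 in αTC1 and at 6.37, 5.81 and 4.74 in βTC6, at least 317-fold higher there. Mnx1, a homeobox gene of the pancreas and of motor neurons, was at 0.02, 0.04 and 0.12 against 10.1, 11.03 and 13.5 (7.53, SE 0.34, adjusted p = 1.25e-07). Of 16 retinoic acid genes 7 were tested and 1 was called, higher in αTC1, beside 4.08% of all genes in that direction and 10.2% in the other. At an FDR of 5% alone 4 were higher in αTC1 and 3 in βTC6, where 36.0% and 38.7% of all genes were. The called gene was Rarb, a retinoic acid receptor, at 3.32, 3.10 and 2.48 in αTC1 and 0.24, 0.54 and 0.45 in βTC6 (-2.81, SE 0.25, adjusted p = 9.16e-06). Under limma on log2(FPKM + 1) the change of Rarb was -1.49, short of the fold threshold. The median over the 7 was -0.52.

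Of the genes that flank the clusters 18 were tested, and 0 were called higher in αTC1 by edgeR or DESeq2 and 1 in βTC6, counts near the 4.08% and 10.2% of all genes. At an FDR of 5% alone 9 were higher in αTC1 and 4 in βTC6 (9 and 5 at an unadjusted p under 0.05), where 36.0% and 38.7% of all genes were, and the median log2 fold change was -0.23. The called gene was Skap1, an adaptor protein gene that lies beside HoxB, at 0.97, 0.87 and 0.76 FPKM in αTC1 and 18.8, 29.6 and 28.2 in βTC6 (5.02, SE 0.23, adjusted p = 1.65e-07). The most abundant neighbours, Atp5g3, Hnrnpa1 and Atp5g1, had log2 fold changes of -0.51, -0.42 and -0.75. Of 17 listed noncoding genes of the clusters Hoxa11as was the 1 matched by symbol, and it had 8 counts in αTC1 and 0 in βTC6.

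**Figure D5:**
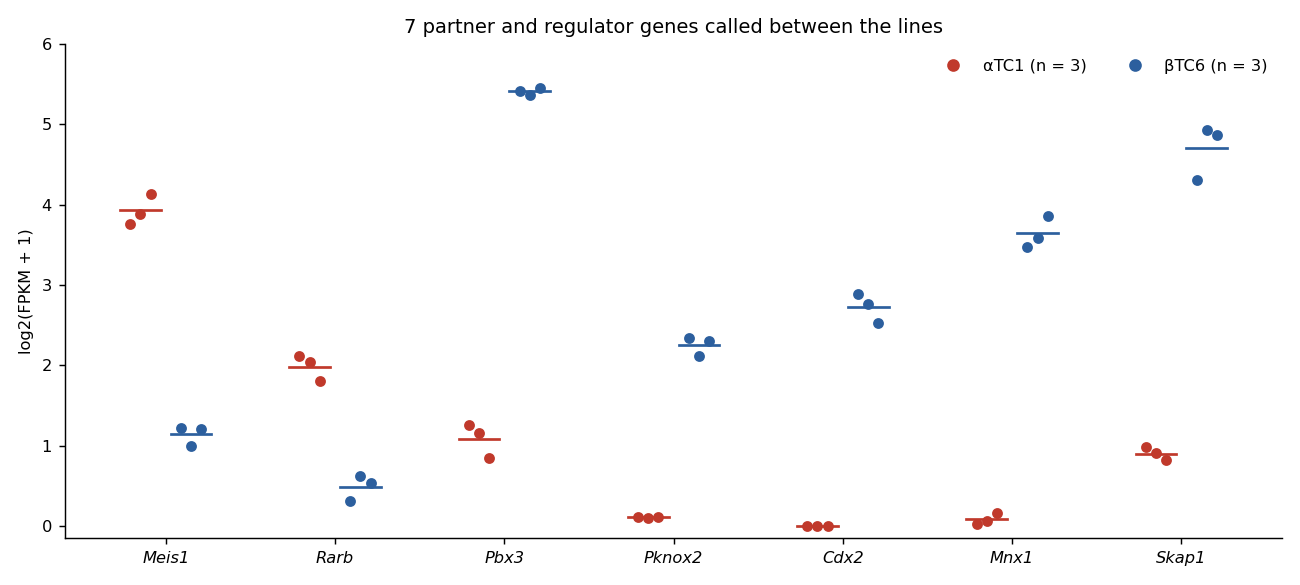
RNA level as log2(FPKM + 1) (vertical axis) of 7 partner and regulator genes that were called, each point 1 library (n = 3 per line) and each bar the mean. Meis1 and Rarb are higher in αTC1 and Pbx3, Pknox2, Cdx2, Mnx1 and Skap1 in βTC6, with no overlap between the lines.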

How the data were processed

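RNA-seq and ATAC-seq of αTC1, βTC6 and their mixtures were used. Per the submitters' processing notes and the study's methods, RNA reads were trimmed (Trim Galore 0.40) and quantified with RSEM 1.2.12 on Ensembl transcripts of mm9, and the authors deposited expected counts and FPKM values per gene. ATAC reads were trimmed (Trimmomatic 0.32), aligned to mm9 (BWA 0.7.9a), freed of duplicates (Picard 1.95), called into peaks per library (MACS2 2.1.0) and merged (DiffBind 2.2.5), and the deposited signal values are TMM-normalized read counts per consensus peak, annotated with HOMER 4.6. These values were whole multiples of the lowest value of each library, which was taken as 1 read. Reads in peaks numbered 6903416 to 8300868 in αTC1, 4397851 to 10374903 in βTC6 and 5277983 to 7294832 in the mixtures. Columns with the authors' own peak calls hold their findings and were not used. The number of sample columns left unmatched was 0.

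Expected counts were rounded, 92 ERCC spike-in entries set aside and edgeR 4.0.16 (TMM, quasi-likelihood, no covariate) run on genes with an FPKM of at least 1 in all libraries of either line. The ERCC-based normalization of the study was replaced by TMM, since its package was not installed, with ERCC scaling as an alternative. ATAC values were tested with limma 3.58.1 (trend) on log2(value + 1). Calls needed an FDR under 5% and, between lines, an absolute log2 fold change over 2; fold changes of log2(value + 1) understate weak peaks. All p-values were adjusted over the whole table. R 4.3.3, DESeq2 1.42.0 and Python 3.11.15 were used. On simulated data the tests recovered 200 of 200 changed genes in RNA, 200 of 200 peaks between lines and 199 of 200 slopes, with 0, 0 and 10 false calls. The changes planted in peaks were larger than that of any Hox peak in the main fits. They lay only in peaks with a mean of at least 5 normalized reads, so recovery of weaker peaks was not measured.

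Named were all tested Hox genes, untested ones with an FPKM of at least 0.3 in any library, called Hox peaks, those within 2 kb of the start of a tested gene and the 3 per cluster with the highest mean over the 10 pure libraries, and of the lists the called and the 3 most abundant genes. The members and lists were chosen with earlier results of these data known. The labels do not say that replicates came from separate cultures, so p-values measure only the spread between these libraries, which may be technical; no pair of libraries agreed within sampling noise (chi-square per degree of freedom of at least 2.05). Intervals and floors cover counting error only. Sequences were read from NCBIM37, the assembly of mm9, with GENCODE vM1. Results for some genes and sequences are not reported here.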

Additional observations from a re-analysis of the deposited data

Results flagged for a closer look

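Among 32 groups of 5 libraries (16 Hox peaks in either line) 2 held a library far from the rest, where chance gives about 1 in 20 groups. At the peak over annotated Hoxa3 starts, αTC1 replicate 5 had 3.47 normalized reads while the other 4 had at least 6.58. The gap was 0.723 of the whole range, against a critical value of 0.71. At the peak over a Hoxa7 start, βTC6 replicate 1 had 8.24 normalized reads while the others had at most 3.85, a gap of 0.733 of the range. In both cases the library stayed on its own line's side, and both peaks passed the FDR without it.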

How the results depend on the processing

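The direction of the 5 tested Hox genes, the 16 Hox peaks and the 8 called partner genes was reversed under no alternative run; the other genes were not followed one by one. The count of Hox genes called (5) was 19 without the FPKM filter and 5 to 6 when a library was left out. The counts of partner and regulator genes (3 higher in αTC1, 5 in βTC6) were 6 and 9 without that filter, 40 and 21 without the fold threshold, and 3 to 4 and 5 to 6 when a library was left out. The count of Hox peaks called (3) was 0 with a pseudocount of 5, 6 with one of 0.5, 8 in edgeR on the recovered reads, 7 with quantile normalization, 1 with the chromosome median subtracted, 16 without the fold threshold, 1 in replicates 1 to 3 and 2 to 4 when a library was left out. A larger pseudocount shrinks the fold of weak peaks by construction. The count of Hox peaks with a slope over the mixtures (12) was 4 of 5 tested with a mean of at least 5 normalized reads, and 6 to 13 when a mixture was left out, with 6 without the mixture of 10% αTC1 and 8 without that of 80%.

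Replicate numbers did not pair the libraries: deviations of same-numbered libraries correlated at -0.036 to 0.021 over 3 RNA pairs and -0.0019 to 0.069 over 5 ATAC pairs. With the replicate block the counts were 5 Hox genes, 3 and 5 partner genes and 3 Hox peaks, as without it. Depth limits the weakest peaks, which rest on 1 to 12 reads per βTC6 library.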
